A study of Mus musculus with 2 samples.

Results

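The transcripts described here encode 34 core proteins of the small nuclear ribonucleoproteins (snRNPs) of the spliceosome. They were chosen by name, from the U1, U2, U4/U6 and U5 particles, the Sm ring and the Prp19 complex, and all 34 were found among the 26440 genes of the deposited tables, each as 1 RefSeq accession. The samples were livers of BALB/c mice aged 11 days, with 1 wild-type (WT) library and 1 library labelled SRSF2-/-, a deletion that the series places in the liver alone. The sources used here do not give the Cre driver, the sex of the animals or the number of animals per library. Levels are FPKM (fragments scaled by transcript length and sequencing depth), and every difference is the knockout against the wild-type library.

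The spliceosome removes introns from messenger RNA precursors and is built anew on each intron from snRNPs, each a small nuclear RNA with its proteins. U1 pairs with the 5′ splice site, U2AF and U2 recognise the 3′ splice site and the branch point, and a U4/U6.U5 tri-snRNP then joins. Helicases rearrange the RNAs and the Prp19 complex holds the active form together. A ring of Sm proteins sits on the U1, U2, U4 and U5 RNAs. SRSF2, a serine/arginine-rich protein bound to exons, is known to help U1 and U2 assemble at nearby splice sites. The comparison therefore shows the transcripts of the core machinery in a liver with less Srsf2 transcript.

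All 34 transcripts stood at a higher FPKM in the knockout library, from 1.12-fold for Prpf6 to 2.53-fold for Snrpc, but 84.5% of the 12477 genes tested were higher too. Relative to the median of all genes tested, 23 members lay above and 11 below on the log2(FPKM + 1) scale (21 and 13 by plain ratio), and with TMM scaling (which assumes that most genes do not differ) 20 had a positive and 14 a negative log2 ratio. With the libraries rescaled without the 20 most abundant genes of each library by FPKM, 30 had a positive and 4 a negative log2 ratio. The counts under these scalings are against 0, where the median of all genes tested was -0.015 with TMM. Without the 20 most abundant genes of each library it was 0.28, so most genes were positive there too. A gene was tested if it reached 1 FPKM in either library, and all 34 did. The log2 ratios, on the log2(FPKM + 1) scale, had a median of 0.76 over the members and 0.55 over all genes tested. Members differed from each other less widely than genes at large, with an interquartile range of 0.44 against 0.67. At 2-fold on that scale 5 members were higher and 0 lower (14.7% higher), beside 19.2% of all genes tested higher and 2.95% lower. The 5 were Snrpc, Snrpf, Snrpd1, Snrpb2 and Sf3b4. After the median of all genes was subtracted (centring), 0 members were past 2-fold in either direction, beside 5.67% of genes higher and 6.66% lower. At 1.5-fold as deposited 22 members (64.7%) were higher and 0 lower, beside 47.4% and 5.51% of all genes tested. By the plain ratio, with no pseudocount, 10 members (29.4%) reached 2-fold, beside 32.2% of genes. Within 1.5-fold of the median of all genes lay 30 members (88.2%) and 72.0% of all genes tested. No set of genes with like levels was compared, so the part of expression level in this and in the narrower interquartile range was not tested.

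The genotypes had no replicates, so nothing could be set against the spread between animals, and the values describe these libraries alone. The bracketed ranges are exact 95% Clopper-Pearson limits on the ratio of reads and cover counting error only. The tables hold 22407743 reads for the wild-type and 22111605 for the knockout library, and the members had 118 to 5344 and 170 to 6782 reads. Srsf2 stood at 27.9 and 11.8 FPKM, a knockout level of 0.421 of the wild-type level (0.388 to 0.457). The 20 transcripts with the most reads took 37.5% of wild-type and 21.5% of knockout reads, and the part of this shift in the FPKM of the snRNP genes was not tested. The 6 hepatocyte markers were well detected in both libraries (515 to 50399 and 599 to 25492 FPKM), with 3 of them at least 2-fold lower in the knockout (5 after centring). All 7 tested exocrine pancreas markers, all 6 tested skeletal muscle markers and 4 of 5 bile duct markers were at least 2-fold higher in the knockout library (7, 6 and 2 after centring). The muscle markers reached at most 0.0922 FPKM in the wild-type library, so they passed the filter of 1 FPKM through the knockout library alone. So did most of the tested pancreas and bile duct markers. A marker that passed this way could only come out higher, so these counts were largely set by the filter. Summed, the pancreas list stood at 3.27 and 608 FPKM, with 0 wild-type reads for Pnlip and Cel. The muscle list stood at 0.195 and 82.6 FPKM, with 0 wild-type reads for Acta1, Myh4 and Myl1, and the bile duct list at 4.31 and 55.8 FPKM. Of 4 macrophage markers, summed at 75.7 and 159 FPKM, 1 was at least 2-fold higher (1 after centring), and of 6 stellate and matrix markers, at 92.2 and 197 FPKM, 4 were (0 after centring). Of the tested erythroid (4), endothelial (5) and lymphocyte (4) markers 0 were past 2-fold as deposited, and 2, 0 and 2 were at least 2-fold lower after centring. Xist, a transcript of female cells, stood at 27.4 and 0.0138 FPKM and the Y-linked Ddx3y at 0 and 7.02 FPKM. By these transcripts the wild-type library was female and the knockout library male, so genotype and sex cannot be told apart. The part of all these marker differences in the snRNP values was not tested. In such bulk RNA, fewer cells of a type and less RNA per cell cannot be told apart.

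**Figure D1:**
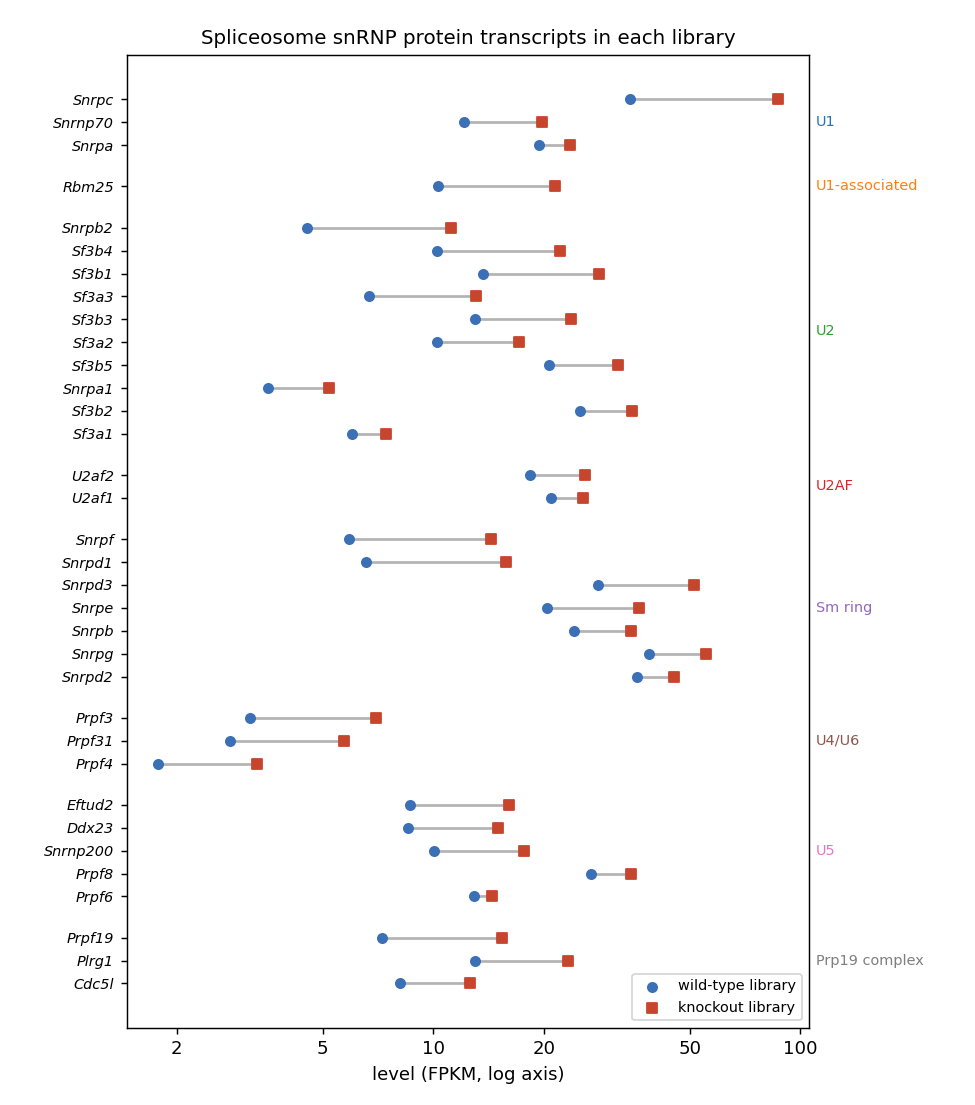
Level of each of the 34 transcripts (FPKM, log axis) in the wild-type library (circles) and the knockout library (squares), grouped by particle and ordered by ratio within it. As deposited, every square lies to the right of its circle; against the median plain ratio of all genes (1.62), 13 of the 34 ratios lie below it.

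Promoters were examined for what the members share in sequence. The RefSeq table of build GRCm38.p6 held 32 windows of 300 bases (250 before to 50 after a start) for 27 of the 34 genes. Their median GC content was 57.7%, beside 56.3% for 21263 windows of protein-coding genes, and their median number of CG dinucleotides was 23.5 beside 13. The ETS core CCGGAAG, searched on both strands, was found in 14 member windows (43.8%), 8.86% of all 32851 windows and 11.6% of protein-coding windows. The GC box GGGCGG was also in 43.8% of member windows, beside 35.7% of all and 46.2% of protein-coding ones, and CCAAT in 43.8% beside 37.4% and 38.2%. TATAAA was in 3 member windows (9.38%), beside 13.6% and 12.6%. Some genes have overlapping windows, and a match describes letters and not binding. Both windows of Sf3b2 hold the ETS core. The ETS core and the GC box each contain a CG, and no windows with like CG counts were compared. To show these promoters at both ends of the range of ratios, the 150 bases before the start are printed for the 2 highest and the 2 lowest ratios among members with 1 window, all on the + strand, with matches to the ETS core and the GC box on either strand in capitals.
Snrpc (chr17:27839937-27840086): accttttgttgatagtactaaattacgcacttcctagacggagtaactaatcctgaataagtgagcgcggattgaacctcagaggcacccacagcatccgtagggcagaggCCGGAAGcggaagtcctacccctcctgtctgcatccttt
Snrpb2 (chr2:143062919-143063068): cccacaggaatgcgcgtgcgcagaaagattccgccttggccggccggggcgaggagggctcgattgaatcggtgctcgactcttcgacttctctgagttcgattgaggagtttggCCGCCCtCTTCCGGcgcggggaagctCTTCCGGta
Prpf6 (chr2:181601169-181601318): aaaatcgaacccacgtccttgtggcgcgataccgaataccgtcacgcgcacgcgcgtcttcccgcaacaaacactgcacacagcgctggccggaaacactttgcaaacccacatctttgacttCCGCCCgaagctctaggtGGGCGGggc
Sf3a1 (chr11:4160204-4160353): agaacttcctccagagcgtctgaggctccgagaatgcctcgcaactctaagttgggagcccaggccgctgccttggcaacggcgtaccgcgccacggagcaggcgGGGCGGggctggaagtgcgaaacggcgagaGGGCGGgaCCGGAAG
The ETS core occurs in the 300-base window of all 4 genes, and for Prpf6 its match lies outside the 150 bases shown.

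U1 recognises the 5′ splice site, and its 3 specific proteins differed from each other more than the members of any other particle. Snrpc encodes a small zinc-finger protein that steadies the pairing of U1 with the splice site. Its level was 34.4 FPKM in wild-type and 87.1 FPKM in knockout liver, 2.53-fold higher (2.32 to 2.77), which made it the most abundant member in the latter. Snrpa, whose product binds a stem-loop of U1 RNA, stood at 19.5 and 23.6 FPKM, 1.21-fold higher (1.10 to 1.34). Within a library, Snrpc was thus 1.77 times the level of Snrpa in the wild-type and 3.68 times in the knockout. Snrnp70, whose product U1-70K is a contact of SR proteins, stood at 12.2 and 19.8 FPKM, 1.63-fold higher (1.52 to 1.75), close to the median ratio of 1.62 over all genes tested. The 3 intervals do not overlap. Rbm25, a splicing regulator that associates with U1, stood at 10.3 and 21.5 FPKM, 2.09-fold higher (1.96 to 2.23).

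U2 binds the branch point, and its 10 proteins had a median log2 ratio of 0.76 (0.20 relative to all genes). Snrpb2 and Snrpa1 encode the pair of proteins that bind together to a stem-loop of U2 RNA. Snrpb2 stood at 4.54 and 11.2 FPKM, 2.47-fold higher (2.03 to 3.009). Snrpa1 stood at 3.56 and 5.19 FPKM, 1.46-fold higher (1.146 to 1.86) on 118 and 170 reads, the fewest of any member. The intervals of these partners do not overlap, and neither do those of Snrpb2 and its U1 homologue Snrpa.

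The SF3b subcomplex clamps the branch point, and its subunits fell on both sides of the median gene. Sf3b1, the large HEAT-repeat subunit that holds the branch-point helix, stood at 13.6 and 28.2 FPKM, 2.07-fold higher (1.97 to 2.18). Sf3b4, an RNA-binding subunit, stood at 10.2 and 22.1 FPKM, 2.16-fold higher (1.93 to 2.41). Its direct partner Sf3b2 stood at 25.1 and 34.9 FPKM, 1.39-fold higher (1.32 to 1.47), below the median ratio of all genes. The scaffold subunit Sf3b3 was at 13.0 and 23.7 FPKM (1.83-fold) and the small subunit Sf3b5 at 20.7 and 31.8 FPKM (1.54-fold). At the deposited lengths these levels lay closer together in the knockout library, where the most and least abundant SF3b transcripts differed 1.58-fold, against 2.45-fold in the wild-type library.

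SF3a joins SF3b to the rest of U2, and the interval of Sf3a1 lay below those of Sf3a2 and Sf3a3, which overlap. Sf3a3 stood at 6.68 and 13.1 FPKM, 1.96-fold higher (1.71 to 2.26). Sf3a2 stood at 10.2 and 17.1 FPKM, 1.67-fold higher (1.499 to 1.87). Sf3a1 was at 6.01 and 7.46 FPKM, 1.24-fold higher (1.13 to 1.36), the second-lowest ratio in U2 or U2AF. U2AF guides U2 to the 3′ splice site, its large subunit (U2af2) reading the pyrimidine tract and its small subunit (U2af1) the terminal AG. U2af1 was at 21.0 and 25.6 FPKM, 1.22-fold higher (1.09 to 1.37), and U2af2 at 18.3 and 25.9 FPKM, 1.41-fold higher (1.32 to 1.51). Both intervals lay below the median ratio of all genes and overlapped each other, and the pair had the lowest median log2 ratio of the 8 groups (0.38, or -0.18 relative to all genes).

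The 7 Sm proteins form a ring around the RNA, made from a B-D3 pair, a D1-D2 pair and an E-F-G trio. Their median log2 ratio was 0.81 (0.25 relative to all genes), with ratios from 1.26 to 2.45. In the D1-D2 pair, Snrpd1 was at 6.58 and 15.8 FPKM, 2.41-fold higher (1.98 to 2.94), and Snrpd2 at 35.9 and 45.4 FPKM, 1.26-fold higher (1.12 to 1.43). In the B-D3 pair, Snrpb was at 24.1 and 34.7 FPKM, 1.44-fold higher (1.31 to 1.58), and Snrpd3 at 28.1 and 51.5 FPKM, 1.83-fold higher (1.63 to 2.06). The intervals do not overlap within either pair. In the trio, Snrpf stood at 5.89 and 14.4 FPKM, 2.45-fold higher (1.98 to 3.03), Snrpe at 20.4 and 36.4 FPKM (1.79-fold) and Snrpg at 38.8 and 55.4 FPKM (1.43-fold). At the deposited lengths Snrpf and Snrpd1 were the least abundant Sm transcripts in both libraries, and they had the highest ratios. The ring's transcripts spanned a 6.58-fold range of levels in the wild-type and 3.84-fold in the knockout library. Sm genes are known for processed pseudogenes, and the sources used here do not say how reads that match several places were counted.

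U4/U6 carries the U6 RNA in an inactive form, and at the deposited lengths its 3 transcripts were the least abundant in the wild-type library. Prpf3 was at 3.17 and 6.996 FPKM, 2.20-fold higher (1.88 to 2.59), and its binding partner Prpf4 at 1.78 and 3.31 FPKM, 1.86-fold higher (1.59 to 2.18). Prpf31, which clasps the U4 RNA and is mutated in a form of retinitis pigmentosa, was at 2.79 and 5.73 FPKM, 2.05-fold higher (1.76 to 2.42). The 3 intervals overlap, and this particle had the narrowest spread of log2 ratios (0.31) among the 6 particles with at least 3 members. At such levels the added 1 FPKM lowers the log2 ratio, which is why Prpf3 and Prpf31 exceed 2 as plain ratios and not on the log2(FPKM + 1) scale. Rbm25, Sf3b1 and Prpf19 also exceed 2 only as plain ratios. Their shortfall from 2-fold on the log2(FPKM + 1) scale is smaller.

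U5 aligns the exons, and its 5 transcripts split into a group above the median gene and a pair below it. Prpf8, the scaffold of the catalytic centre, stood at 26.9 and 34.6 FPKM, 1.28-fold higher (1.24 to 1.33). Prpf6, which bridges U5 and U4/U6, was at 12.9 and 14.5 FPKM, 1.12-fold higher (1.03 to 1.22), the lowest ratio of all 34. The partners of Prpf8 lay higher. Eftud2, a GTPase, stood at 8.67 and 16.1 FPKM (1.86-fold, 1.70 to 2.03). Snrnp200, the helicase that unwinds U4 from U6, stood at 10.03 and 17.6 FPKM (1.76-fold, 1.66 to 1.87). Ddx23, the helicase that releases U1 from the 5′ splice site, stood at 8.52 and 15.1 FPKM (1.77-fold, 1.61 to 1.94). Prpf8 was 3.11 times the level of Eftud2 in the wild-type and 2.15 times in the knockout library.

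The Prp19 complex acts during activation of the spliceosome. Prpf19, its ubiquitin ligase, stood at 7.24 and 15.4 FPKM, 2.13-fold higher (1.99 to 2.29). Plrg1, a WD-repeat protein, was at 13.0 and 23.3 FPKM, 1.80-fold higher (1.63 to 1.99), and Cdc5l, a Myb-related scaffold, at 8.11 and 12.6 FPKM, 1.55-fold higher (1.40 to 1.72). The interval of Cdc5l includes the median ratio of all genes and those of the other pair lie above it.

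**Figure D2:**
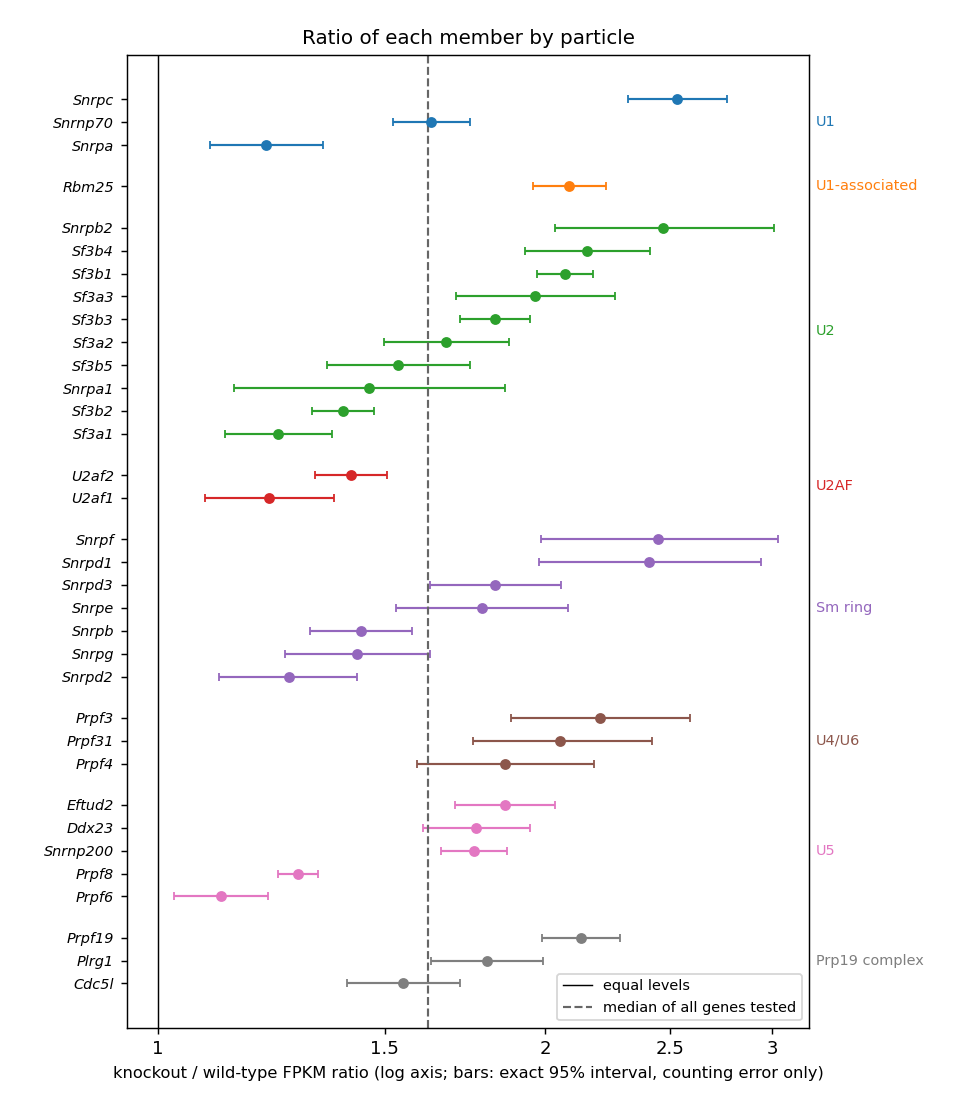
Knockout to wild-type FPKM ratio of each member (log axis) by particle, with exact 95% limits (counting error only); the solid line marks equal levels and the dashed line the median ratio of all genes tested, 1.62. Ratios as deposited run from 1.12 (Prpf6) to 2.53 (Snrpc), and members of the same particle lie on both sides of the dashed line in U1, U2, the Sm ring, U5 and the Prp19 complex.

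Compared by particle, median log2 ratios were 0.38 for U2AF, 0.66 for U1, 0.75 for U5, 0.76 for U2, 0.80 for the Prp19 complex, 0.81 for the Sm ring and 0.83 for U4/U6, with Rbm25 at 0.99. This order depends on the pseudocount and the grouping: U4/U6 stood at 0.46 with a pseudocount of 5, below U1 at 0.53, and U1 at 0.83 with Rbm25 counted in it. The range of single log2 ratios within a particle was 0.31 for U4/U6, 0.42 for the Prp19 complex, 0.67 for U5, 0.83 for the Sm ring, 0.87 for U2 and 1.05 for U1. Against the median ratio of all genes, 16 members (47.1%) had an interval wholly above it and 9 (26.5%) wholly below it, beside 36.2% and 36.5% of all genes tested. The 9 below were Snrpa, Sf3a1, Sf3b2, both U2AF subunits, Snrpb, Snrpd2, Prpf8 and Prpf6. How many intervals exclude the median depends on depth, and counting error leaves out the variation between animals.

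**Figure D3:**
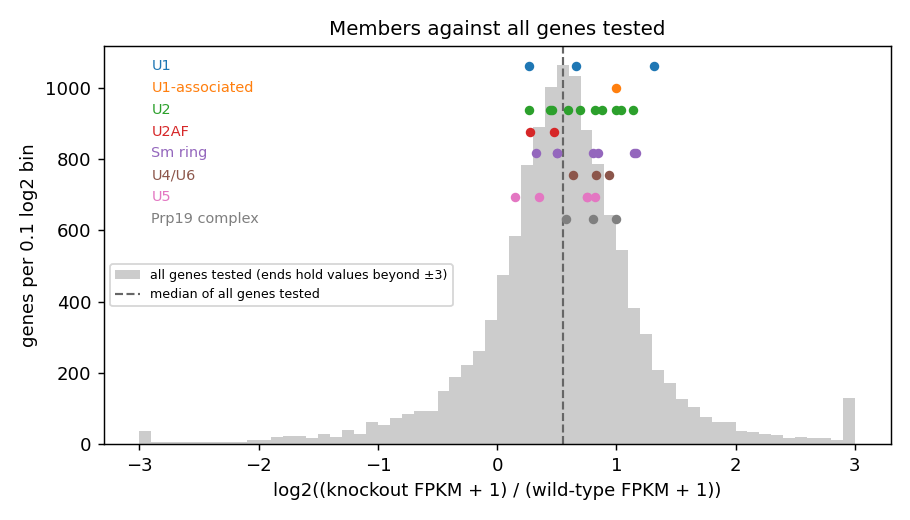
Histogram of log2((knockout FPKM + 1) / (wild-type FPKM + 1)) over the 12477 genes tested, with the members of each particle as points at arbitrary heights and the median of all genes (0.55) as a dashed line. The members, as deposited, lie between 0.15 and 1.31, inside the bulk of the distribution.

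The order of levels was much the same in both libraries, with a Spearman correlation of 0.96 over the 34 transcripts, each pair of values sharing its transcript length. Wild-type levels ran from 1.78 FPKM (Prpf4) to 38.8 FPKM (Snrpg), a 21.8-fold span, and knockout levels from 3.31 FPKM (Prpf4) to 87.1 FPKM (Snrpc), a 26.3-fold span. Members with low wild-type levels tended to have high ratios (Spearman -0.45), as did all genes tested (-0.43), and in both cases the ratio contains the wild-type level. Levels of different genes depend on the transcript length the authors used. The length implied by reads and FPKM, scaled by its median over all accessions, was within 15% of the GENCODE length for 24 members. Of the 12386 accessions compared, 69.7% were within 15%, so such differences are not particular to these members. The implied length was 2.90 times the GENCODE length for Prpf19, 2.35 times for Snrnp70 and 1.501 times for U2af2. It was 0.190 of it for Sf3b5, 0.198 for Snrpd3, 0.342 for Snrpd2 and 0.370 for Snrpg, and between 0.594 and 1.17 for Snrpb2, Sf3a2 and Rbm25. The order of these levels is therefore uncertain. Plain ratios between libraries do not depend on length. Ratios on the log2(FPKM + 1) scale do, through the added 1, and so do the counts past 2-fold and the particle medians on that scale. How far the lengths move these was not tested.

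The 10 further lists covered the splicing proteins around these particles, with 96 of 98 genes matched. As deposited 94 of the 96 were higher in the knockout library, of which 15 reached 2-fold higher and 0 reached 2-fold lower (1 and 0 after centring), beside the 84.5% higher and 19.2% past 2-fold among all genes tested. Their median log2 ratio was 0.73 (0.18 relative to all genes). List medians ran from 0.60 for the single gene Snrpn, the tissue paralogue of Snrpb, to 0.83 for the minor spliceosome. The 2 that were lower were Lsm6, of the LSM ring on U6 RNA, at 3.29 and 2.20 FPKM, and the helicase gene Dhx16, at 5.12 and 4.88 FPKM; both were named after their values were seen.

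Among proteins that join U1, 1 of 8 was at least 2-fold higher, Luc7l at 3.50 and 9.18 FPKM, while its more abundant paralogue Luc7l2 stood at 10.6 and 13.3 FPKM and Luc7l3 at 5.34 and 10.7 FPKM. Among 15 U2-associated proteins 2 were, Rbm17 at 19.5 and 44.8 FPKM and Smndc1 at 4.37 and 11.2 FPKM. The most abundant of that list, Puf60, which cooperates with U2AF, stood at 31.7 and 57.9 FPKM. In the LSM ring 1 of 8 was at least 2-fold higher, Lsm4 at 13.9 and 37.9 FPKM, and Lsm3 stood at 7.11 and 15.1 FPKM. Among 14 other tri-snRNP proteins 2 were, Smu1 at 7.75 and 16.8 FPKM and Prpf38b at 8.84 and 18.7 FPKM, and the abundant Snu13, a partner of Prpf31 on U4 RNA, stood at 26.9 and 51.3 FPKM. Among 14 proteins related to the Prp19 complex 2 were, Ppie at 5.85 and 13.5 FPKM and Syf2 at 17.0 and 36.2 FPKM. The most abundant of these, Bud31, stood at 32.5 and 57.5 FPKM.

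Later steps of splicing held the highest ratio among all these genes. Cwc22, which brings the exon junction complex to the spliceosome, stood at 2.35 and 15.3 FPKM, 6.53-fold higher (5.67 to 7.60), on 214 and 1386 reads. Of the 96 genes, it alone was past 2-fold after centring. Dhx38, a helicase of the catalytic steps, stood at 3.49 and 8.19 FPKM, and 2 of 9 genes in the list were at least 2-fold higher, while the abundant Ddx41 stood at 7.64 and 13.7 FPKM. Cwc22 is known to vary in copy number among mouse strains, and the sources used here do not say how reads shared by copies were counted. Of 7 minor spliceosome genes 3 were at least 2-fold higher, Zcrb1 at 7.23 and 17.99 FPKM, Rnpc3 at 1.99 and 5.69 FPKM and, named after its value was seen, Snrnp25 at 2.99 and 7.19 FPKM. Their products belong to the particle that recognises the rare U12-type introns.

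Factors that load Sm rings onto RNA were measured as a list of 16, of which 2 were at least 2-fold higher. Smn1, whose product assembles the ring, stood at 3.22 and 10.2 FPKM, 3.18-fold higher (2.57 to 3.95), on 116 and 364 reads. Prmt5, which methylates Sm proteins before assembly, stood at 6.21 and 15.3 FPKM, 2.46-fold higher (2.20 to 2.76). Gemin7, the most abundant of the list by the mean of both libraries, stood at 15.6 and 31.1 FPKM. The median of the list was 0.64, or 0.09 relative to all genes. In the exon junction complex 0 of the 4 matched genes were past 2-fold on the log2(FPKM + 1) scale, with Eif4a3, its RNA-clamping helicase, at 22.1 and 36.7 FPKM Rbm8a at 7.49 and 15.3 FPKM and Casc3 at 4.58 and 9.13 FPKM. Snrpn stood at 1.90 and 3.38 FPKM, well below Snrpb in both libraries.

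**Figure D4:**
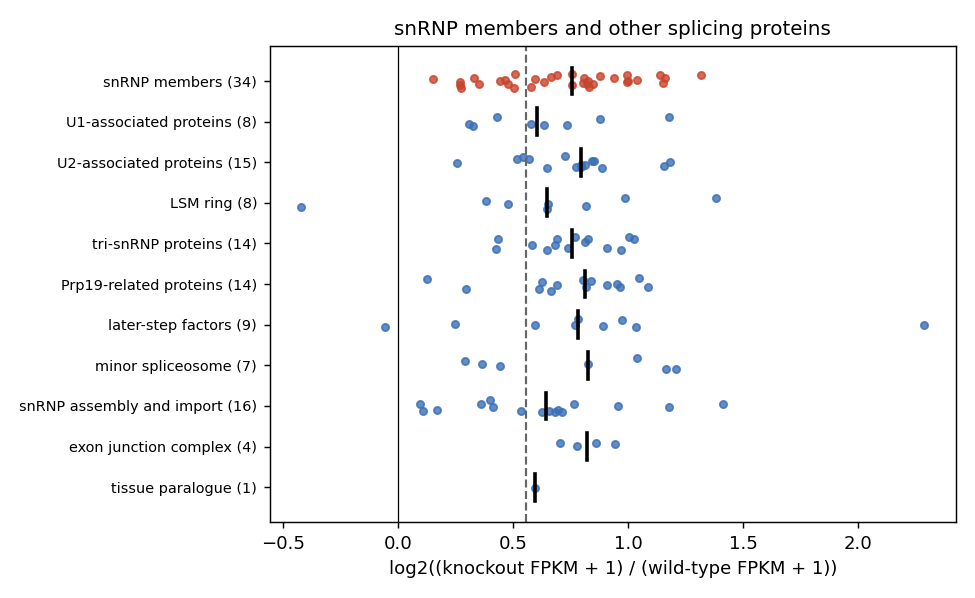
Log2((knockout FPKM + 1) / (wild-type FPKM + 1)) of the 34 snRNP members (top row) and of 96 other splicing genes in 10 lists, 1 point per gene, with the number of genes in brackets, list medians as black bars, the median of all genes tested as a dashed line and 0 as a solid line. As deposited, list medians lie between 0.60 and 0.83, and Cwc22 at 2.29 is the highest point.

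Exons of 11 members overlap another annotated gene in GENCODE, 10 of them a gene on the opposite strand, by 83 to 567 bases. The share of all genes with such an overlap was not computed, so the count is no trait of these members. Examples are Sf3a2 with Plekhj1, Sf3b3 with Cog4, Snrpd3 with Gucd1 and Snrpf with Ccdc38. The sources used here do not say whether counting used strand, so reads of partners on the opposite strand cannot be told apart. Snrpa1 overlaps Gm45213 on the same strand by 148 bases, where strand would not separate the reads.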

How the data were processed

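Liver RNA of 1 wild-type and 1 SRSF2-/- library was analysed, with groups taken from the labelled genotype. Per the submitters' processing notes, reads were aligned with Bowtie 0.12.2 and the build was mm9; the sources used here do not give the counting program, annotation release or use of strand. Per the file headers, the deposited tables hold, by RefSeq accession, the authors' read counts and FPKM values. Accessions were named through the RefSeq table of GRCm38.p6 and GENCODE M21 (23419 of 26449), and accessions of a gene were summed. Ratios used log2(FPKM + 1) for genes with at least 1 FPKM in either library, a size rule of 2-fold, and exact 95% Clopper-Pearson limits on the ratio of reads, multiplied by 1.01, the ratio of FPKM per read between the tables. No test was possible with 1 library per genotype. The members, particles and lists were chosen with earlier results of these data known. Named were all members, Srsf2, and in each companion list the most abundant gene and the 2 with the largest absolute log2 ratio; marker genes were named only where at 0 reads or as sex markers. The ratio computation was tested on simulated counts. Alternatives changed the pseudocount, filter, scaling (TPM, centring, edgeR TMM), accession choice and size rule. Python 3.11.15, numpy 2.4.6, pandas 2.3.3, scipy 1.17.1, matplotlib 3.10.9, R 4.3.3 and edgeR 4.0.16 were used.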

Additional observations from a re-analysis of the deposited data

How the results depend on the processing

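No paired analysis was possible because each genotype had 1 library, and for the same reason no replicate could be left out. The count of members at least 2-fold lower was 0 under every alternative tried, beside 2.95% of all genes tested as deposited and 6.66% after centring. The count at least 2-fold higher was 5 as reported, beside 19.2% of all genes tested. It was 10 with a pseudocount of 0.1, 1 with a pseudocount of 5 and 9 on the TPM scale. It was 0 after centring, 0 without the 20 most abundant genes and 0 with TMM. It was 22 at 1.5-fold (beside 47.4% of all genes tested), 0 at 4-fold, 2 when the whole interval had to exceed 2-fold, and 10 by the plain ratio (beside 32.2% of all genes), a rule added after the data had been seen. For the settings given without a share, that of all genes was not computed. The median log2 ratio over all genes was 0.68 with a pseudocount of 0.1 and 0.30 with 5. On the TPM scale it was 0.64, against 0.55 as reported. Dropping the filter or taking the highest accession could not change the count of 5, since all 34 members passed 1 FPKM with 1 accession each. A filter of 5 FPKM (33 members) dropped only Prpf4, which was not among the 5.

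Particle medians of the log2 ratio moved mainly with the scaling. In the order U1, Rbm25, U2, U2AF, Sm ring, U4/U6, U5 and Prp19 complex, they were 0.11, 0.44, 0.20, -0.18, 0.25, 0.28, 0.20 and 0.25 after centring. Without the 20 most abundant genes of each library they were 0.34, 0.67, 0.44, 0.052, 0.48, 0.55, 0.44 and 0.48. With TMM they were -0.014, 0.31, 0.079, -0.31, 0.11, 0.24, 0.085 and 0.12. A pseudocount of 5 gave 0.53 for U1, 0.79 for Rbm25, 0.59 for U2, 0.46 for U4/U6 and 0.57 for U5. Counting Rbm25 with U1 gave 0.83. U2AF had the lowest median under each of these scalings. The median over all genes was 0.64 on the TPM scale, 0.28 without the 20 most abundant genes and -0.015 with TMM.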
